A study of Mus musculus with 6 samples.

Results

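Transcripts of the endothelial selectins and of their main leukocyte ligand were followed in whole aortic arches of mice. The 3 genes are Sele (ENSMUSG00000026582, E-selectin), Selp (ENSMUSG00000026580, P-selectin) and Selplg (ENSMUSG00000048163, P-selectin glycoprotein ligand), out of 14298 genes in the deposited table. They were taken by name as a family, but with earlier results of these data known. The 3 knockout libraries came from ApoE-/- mice with RBPJflox/flox alleles and the Cdh5-CreERT transgene, a tamoxifen-activated recombinase under the promoter of an endothelial cadherin. The 3 control libraries came from ApoE-/- mice with RBPJflox/flox alleles and no recombinase, so the transgene as well as the deletion distinguishes the groups. All animals were on a C57/BL6 background, lacked apolipoprotein E, were given tamoxifen over 1 week when 8 weeks old, and ate a high-fat diet for the next 6 weeks. PolyA RNA of the arches was sequenced, with 1 library for each of 3 mice per group according to the series' design. The title of the series names leukocyte recruitment, and the question taken here is how the transcripts of the first step of recruitment stood in the knockout arches.

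Selectins are lectins that bind sialylated and fucosylated sugars on passing cells and slow them into rolling along the vessel wall. E-selectin is made by endothelial cells after stimulation with inflammatory cytokines. P-selectin is held ready in Weibel-Palade bodies of endothelial cells and in the granules of platelets, and is also made anew in inflamed mouse endothelium. The protein of Selplg is a mucin on leukocytes that binds all selectins and is modified by glycosylation and tyrosine sulphation. In mouse atherosclerosis both endothelial selectins and this ligand are known for bringing monocytes to the lesion.

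Sele and Selp lie on chromosome 1, and Selplg lies on chromosome 5 between Tmem119 and Coro1c. The 250 bases before the RefSeq start of the endothelial selectin genes are shown because both genes stood lower in the same arches and because their promoters are known for cytokine response. The sequences are from RefSeq on GRCm38.p6, plus strand, at chr1:164047984-164048233 for Sele and chr1:164115014-164115263 for Selp, and capitals mark the motif matches described next.
Sele: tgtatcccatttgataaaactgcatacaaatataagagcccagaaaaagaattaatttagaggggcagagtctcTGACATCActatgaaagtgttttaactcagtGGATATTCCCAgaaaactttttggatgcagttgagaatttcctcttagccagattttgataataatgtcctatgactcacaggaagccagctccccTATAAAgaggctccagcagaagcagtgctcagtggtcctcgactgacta
Selp: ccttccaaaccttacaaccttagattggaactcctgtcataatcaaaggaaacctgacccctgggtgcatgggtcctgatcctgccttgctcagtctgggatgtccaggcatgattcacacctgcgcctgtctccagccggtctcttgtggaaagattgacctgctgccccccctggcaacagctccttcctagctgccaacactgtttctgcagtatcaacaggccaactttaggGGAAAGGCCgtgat
The motifs were picked after the sequences had been read, and both strands were searched. The first was TGGGAA, the core bound by RBPJ, and the second GGNNNTTCC, a shortened NF-kappaB pattern. The others were TGACNTCA, an ATF pattern, and TATAAA, the TATA box. Sele held all 4. Its RBPJ core was on the minus strand at 140 to 135 bases before the start and shared 4 bases with the NF-kappaB-like match at 145 to 137 bases, while the ATF-like match lay at 176 to 169 and the TATA box at 49 to 44 bases. Selp held the NF-kappaB-like match alone, on the minus strand at 14 to 6 bases before the start. Of 32851 mouse promoter windows of the same length, 21.6% held the RBPJ core, 15.7% the NF-kappaB-like pattern, 7.49% the ATF-like pattern and 12.4% the TATA box, and in 1.55% an RBPJ core overlapped an NF-kappaB-like match. These are letter matches, and no binding was measured.

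**Figure D1:**
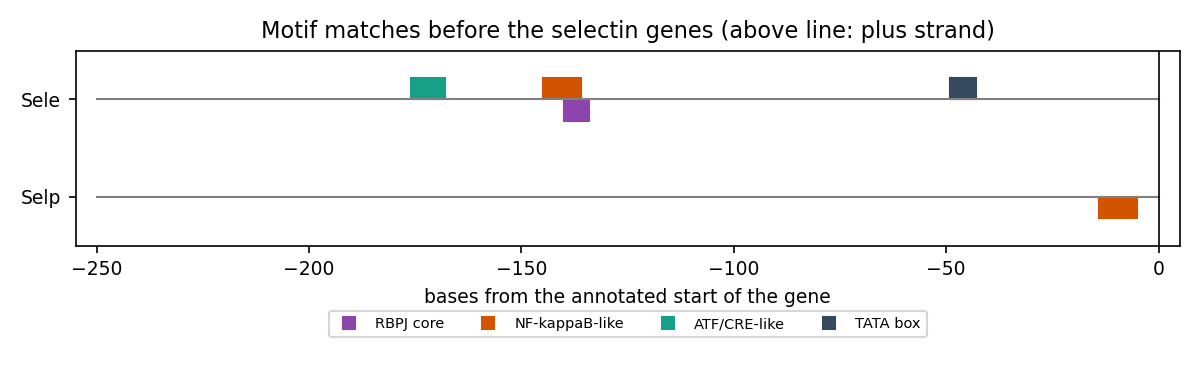
Motif matches in the 250 bases before the start of Sele (upper line) and Selp (lower line). The x axis gives bases from the annotated start, boxes above a line are on the plus strand and boxes below it on the minus strand. In Sele the RBPJ core and the NF-kappaB-like match share 4 bases, and Selp has the NF-kappaB-like match alone.

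Levels are normalised CPM, that is read counts brought to a common library size by the authors. Differences are knockout minus control of log2(CPM + 1), a scale on which changes of low genes come out too small. Each mean is given with its SD over 3 libraries. The libraries held between 5904504 and 10072495 reads over the listed genes, and no pair within a group was a duplicate (chi-square per degree of freedom from 12.5 to 34.1). In whole-arch RNA Rbpj averaged 193 ± 21.7 CPM in knockout arches and 189 ± 13.2 CPM in control arches (SD, n = 3 each), which does not check a deletion confined to endothelium. Smooth muscle markers summed to 22383 to 30732 CPM in the knockout and 12748 to 22212 CPM in the control libraries (median log2 fold change 0.64 over 8 of 8 listed). Markers of other tissues differed as well. Airway epithelium markers (6 of 6 listed) summed to 72.8 to 99.5 CPM in the knockout against 5.86 to 18.0 CPM in the control libraries, and limma called Bpifa1 and Scgb1a1 among them higher. T cell and thymocyte markers (10 of 12 listed) summed to 208 CPM in knockout S598 and 94.8 CPM in knockout S599, against 30.1 CPM in knockout S595 and 32.6 to 43.9 CPM in the controls. The part of these differences in the results below was not tested. Values without S598 and S599, the libraries with the highest T cell and thymocyte sums, are given for each of the 3 genes. The knockout library then left, S595, had the highest airway sum (99.5 CPM) and the highest smooth muscle sum (30732 CPM) of all libraries.

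E-selectin transcripts were lower in the knockout arches. Sele stood at 12.6 CPM in knockout S595, 13.5 CPM in knockout S598 and 26.3 CPM in knockout S599, against 27.8 CPM in control S591, 30.6 CPM in control S592 and 42.3 CPM in control S594. Every knockout value was below every control value, but S599 came close, since the lowest control was only 1.06 times the highest knockout. The means were 17.5 ± 7.69 CPM in knockout and 33.6 ± 7.68 CPM in control arches (SD, n = 3 each), a log2 fold change of −0.96 with a standard error of 0.29 (95% interval −1.62 to −0.29, or 0.325-fold to 0.817-fold). By limma the Benjamini-Hochberg adjusted p over all genes was 0.143, so the difference did not pass the threshold of 0.05. The values rest on 82 to 341 reads a library, and counting error alone would give coefficients of variation of 5.42% to 11.04%, against 44.0% between the knockout and 22.9% between the control libraries. Without knockout S599 the log2 fold change was −1.28 (limma adjusted p = 0.0954), and with S595 as the 1 knockout library left it was −1.33 (limma adjusted p = 0.467).

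P-selectin transcripts were the most abundant of the 3 and also stood lower. Selp was at 76.3, 54.8 and 82.8 CPM in knockout S595, S598 and S599, against 106, 147 and 211 CPM in control S591, S592 and S594. The groups did not overlap, and the lowest control was 1.28 times the highest knockout. Mean levels were 71.3 ± 14.7 CPM in knockout and 155 ± 53.2 CPM in control arches (SD, n = 3 each), a log2 fold change of −1.07 with a standard error of 0.26 (95% interval −1.67 to −0.47, or 0.314-fold to 0.722-fold). The adjusted p by limma was 0.121, above the threshold. The 3 control libraries differed among themselves by more than the knockout libraries did, with coefficients of variation of 34.4% against 20.5% in the knockouts, while 501 to 1704 reads per library put counting error at 2.42% to 4.47%. With S595 as the 1 knockout library left, the log2 fold change was −0.95 (limma adjusted p = 0.513).

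Transcripts of the ligand were lower by a similar amount and with the smallest standard error. Selplg stood at 21.7, 19.1 and 27.1 CPM in knockout S595, S598 and S599, against 41.5, 51.7 and 61.3 CPM in control S591, S592 and S594. The gap between the groups was the widest of the 3 genes, with the lowest control at 1.53 times the highest knockout. Means of 22.7 ± 4.08 CPM in knockout and 51.5 ± 9.88 CPM in control arches (SD, n = 3 each) gave a log2 fold change of −1.15 with a standard error of 0.18 (95% interval −1.57 to −0.73, or 0.337-fold to 0.605-fold). Its adjusted p by limma was 0.107, above the threshold, although the gene ranked 34 of 14298 by p. It rests on 142 to 494 reads a library. With S595 as the 1 knockout library left, the log2 fold change was −1.19 (limma adjusted p = 0.467).

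Read against the whole table, 0 of 3 genes passed the adjusted threshold by limma, where 0% of all genes were called lower and 0.0210%, or 3 genes, higher. All 3 had an unadjusted p under 0.05 on the lower side, where 12.0% of all genes did, and all 3 had groups that did not overlap on the lower side, where 14.2% of all genes did. The edgeR quasi-likelihood test and limma-voom on the recovered reads also called 0 of the 3, with all 3 at an unadjusted p under 0.05 by each (background 12.0% by edgeR and 12.4% by limma-voom). DESeq2 called Selp and Selplg lower (2 of 3, where 4.44% of genes were called lower and 2.07% higher), limma with array weights called the same pair (background 5.06%), and limma without control S591 did so too (background 3.30%). For each gene alone the exact two-sided permutation test gave p = 0.1, the smallest that 3 against 3 libraries allow. Of all genes, 2.97% had a log2 fold change as low as that of Sele or lower, 2.11% as that of Selp and 1.59% as that of Selplg.

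**Figure D2:**
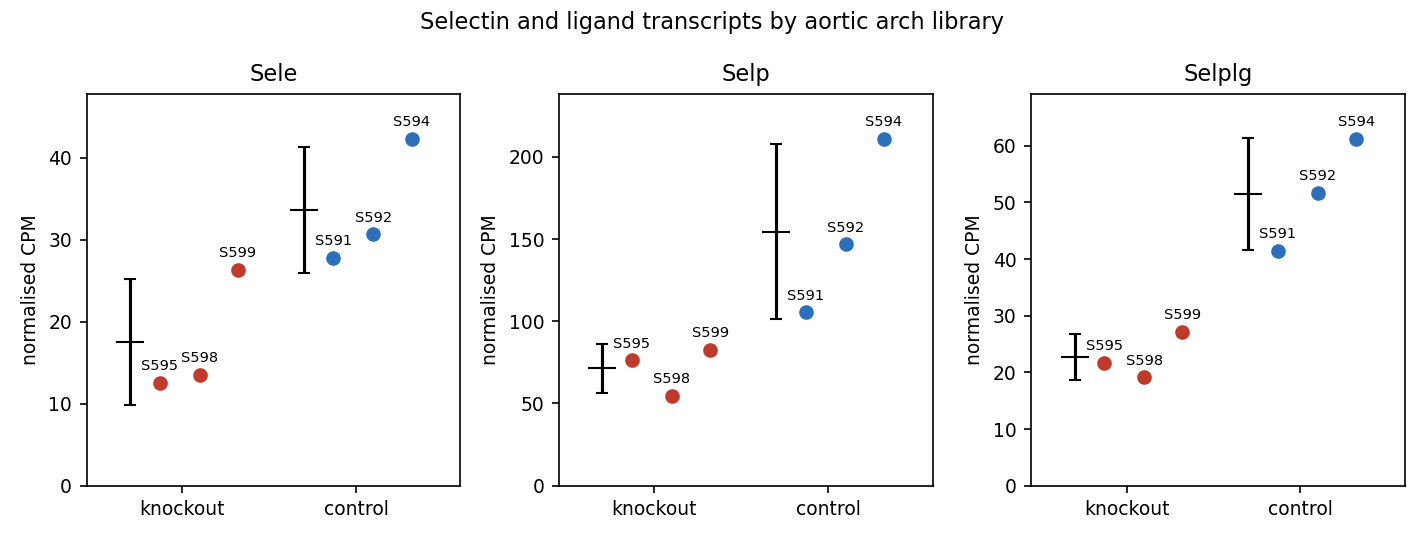
Normalised CPM of Sele, Selp and Selplg in each library (points, labelled by library number), with knockout left and control right. Black marks show the mean and SD of 3 libraries. All knockout points lie below all control points, with the narrowest gap in Sele, where knockout S599 stood at 26.3 and control S591 at 27.8 CPM.

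The 3 genes ordered the libraries alike in part. Within the controls all 3 were highest in S594, next in S592 and lowest in S591. That order was also seen outside the 3, as in the leukocyte genes Ptprc and Itgb2. Within the knockouts all 3 were highest in S599, but Sele was lowest in S595, and Selp and Selplg were lowest in S598. Their ratios to each other did not separate the groups. Per kilobase of exon, Selp stood at 16.2 ± 3.32 CPM in knockout and 35.0 ± 12.0 CPM in control arches, Sele at 6.00 ± 2.64 CPM in knockout and 11.5 ± 2.64 CPM in control arches, and Selplg at 5.30 ± 0.956 CPM in knockout and 12.1 ± 2.31 CPM in control arches. Selp was thus above both other genes in 6 of 6 libraries, while Sele was above Selplg in 3 of 6, so that pair did not differ beyond its spread. The ratio of Selp to Sele per kilobase was 2.92 ± 0.992 in knockout and 2.99 ± 0.421 in control arches, a log2 difference of −0.08 (exact two-sided permutation p = 1.0). For Selp over Selplg the log2 difference was 0.10 and for Sele over Selplg 0.18 (exact permutation p = 0.5 each, and 0.75 after adjustment over the 3 ratios).

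The transcripts most like each gene over the 6 libraries were sought among 11722 genes with a mean of at least 5 CPM. The points share library and genotype, so these Pearson correlations describe the profiles only. Sele was most like Plscr1 (r = 0.998), the gene of an interferon-induced scramblase, followed by Tor4a and Clec2d (both 0.995). Selp was most like Rap2b (0.999), Fgr (0.998) and Tcn2 (0.997), of which Rap2b encodes a small GTPase, Fgr a Src-family kinase of myeloid cells and Tcn2 a vitamin B12 carrier. Selplg was most like Tlr9 (0.998), the gene of the endosomal receptor for unmethylated DNA, then Apobr (0.996), a macrophage receptor for lipoproteins, and Rai14 (0.995). Plscr1 for example stood at 7.53, 8.53 and 14.5 CPM in knockout S595, S598 and S599, against 15.0, 17.1 and 21.2 CPM in control S591, S592 and S594. Apobr stood at 12.7, 10.7 and 16.1 CPM in the same knockout libraries, against 26.0, 35.3 and 36.9 CPM in the controls. Among themselves the 3 genes correlated less closely, at 0.967 for Selp with Selplg, 0.926 for Sele with Selplg and 0.887 for Sele with Selp.

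Each gene was then set against markers of the cells that make it, within the same library. In whole tissue, fewer cells of a type and less RNA per cell cannot be told apart. The endothelial markers (15 of 15 listed, among them Cdh5, Pecam1 and Tek) were centred at a log2 fold change of −0.03 (median). None of them passed the limma test or had an unadjusted p under 0.05. They summed to 873, 919 and 1323 CPM in knockout S595, S598 and S599, against 1048 to 1077 CPM in the controls, so S599, the knockout library with the most Sele, also had the highest endothelial marker sum. Cdh5 averaged 139 ± 51.1 CPM in knockout and 132 ± 12.7 CPM in control arches, and Pecam1 340 ± 83.5 CPM in knockout and 331 ± 22.1 CPM in control arches. Both selectin genes had lower log2 fold changes than any of the 15 endothelial markers, which ran from −0.54 to 0.12. Relative to the mean log2 level of these markers, Sele stood at −1.25 ± 0.21 in knockout and −0.40 ± 0.25 in control arches, a log2 difference of −0.85. Selp stood at 0.77 ± 0.33 in knockout and 1.73 ± 0.45 in control arches, a log2 difference of −0.96. Neither pair of groups overlapped, and the exact two-sided permutation p was 0.1 for each, the smallest possible. The nearest values were −1.01 in knockout S599 and −0.62 in control S591 for Sele. For Selp they were 1.15 in knockout S595 and 1.27 in control S591. Platelets are the other source of P-selectin. Of 10 platelet markers 5 were listed, and Gp5, Gp6, Gp9, Ppbp and Treml1 were not analysed here. They summed to 22.9 to 29.0 CPM in the knockout and 29.2 to 35.9 CPM in the control libraries, and 2 of the 5 had negative log2 fold changes, with a median of 0.0054. These were −0.57 for the chemokine gene Pf4 and −0.55 for the integrin gene Itga2b, while Gp1ba stood at 0.0054, Gp1bb at 0.29 and Clec1b at 0.35. The part of platelet RNA in the Selp difference was not tested.

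For the ligand gene the markers used were those of leukocytes. All 12 pan-leukocyte markers (12 of 12 listed) had negative log2 fold changes, from −1.33 to −0.63 with a median of −1.01, and Selplg at −1.15 lay inside that range, as did Sele at −0.96 and Selp at −1.07. They summed to 718 to 1258 CPM in the knockout against 1485 to 2296 CPM in the control libraries. None of the 12 passed the limma test, the edgeR test or limma-voom, and all 12 had an unadjusted p under 0.05 on the lower side by each (12.0%, 12.0% and 12.4% of all genes in that order). DESeq2 called all 12 lower, where 4.44% of all genes were. Ptprc, the common leukocyte phosphatase CD45, averaged 85.5 ± 23.8 CPM in knockout and 154 ± 41.7 CPM in control arches, and Itgb2, the shared chain of the leukocyte integrins, 113 ± 41.5 CPM in knockout and 280.0 ± 72.4 CPM in control arches. Relative to the mean log2 level of the 12 markers, Selplg stood at −1.14 ± 0.08 in knockout and −1.01 ± 0.08 in control arches. That left a log2 difference of −0.13 (exact two-sided permutation p = 0.1), against −1.02 for the marker mean itself. The groups did not overlap, but knockout S598 at −1.10 and control S592 at −1.09 nearly met. With a pseudocount of 5 the difference from the same 12 markers was −0.083 (exact permutation p = 0.4). With the median of the 12 markers in place of their mean it was −0.31 (exact permutation p = 0.1). Set against 13 macrophage markers instead (median log2 fold change −1.09), with the pseudocount of 1, the log2 difference of Selplg was −0.013 (exact permutation p = 1.0).

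**Figure D3:**
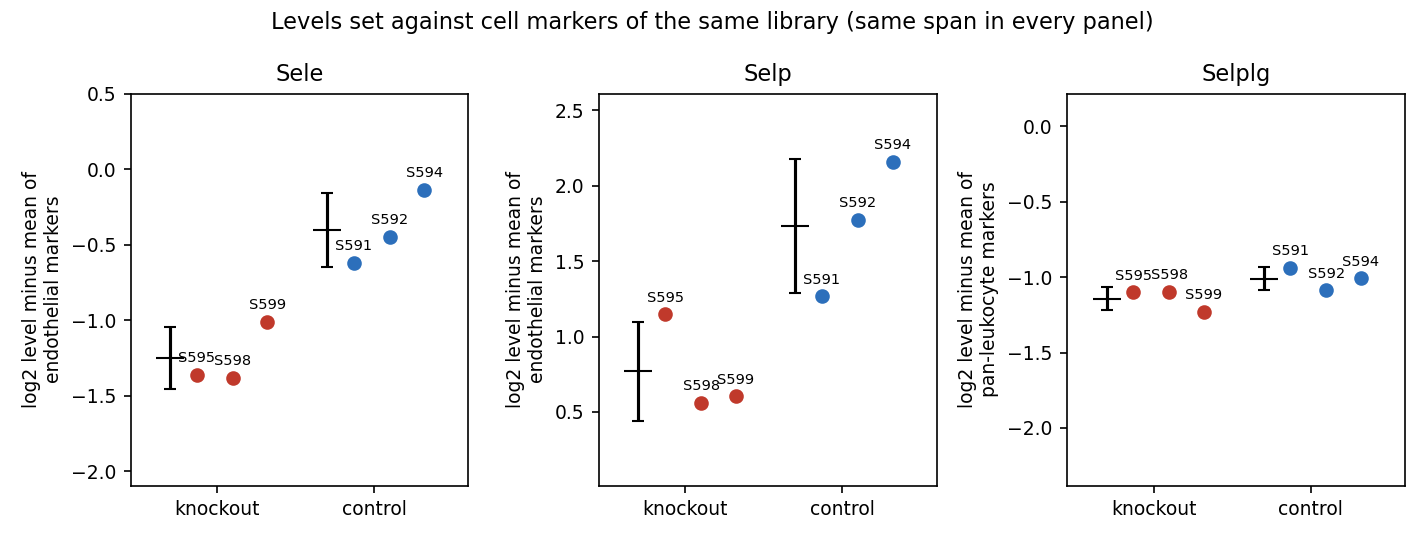
Log2(CPM + 1) of each gene minus the mean of its cell markers in the same library (y axis, the same span in every panel), knockout left and control right, with mean and SD of 3 libraries in black. The group means stand 0.85 apart for Sele, 0.96 for Selp and 0.13 for Selplg. Single points lie closer, as in Selp with knockout S595 at 1.15 and control S591 at 1.27.

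**Figure D4:**
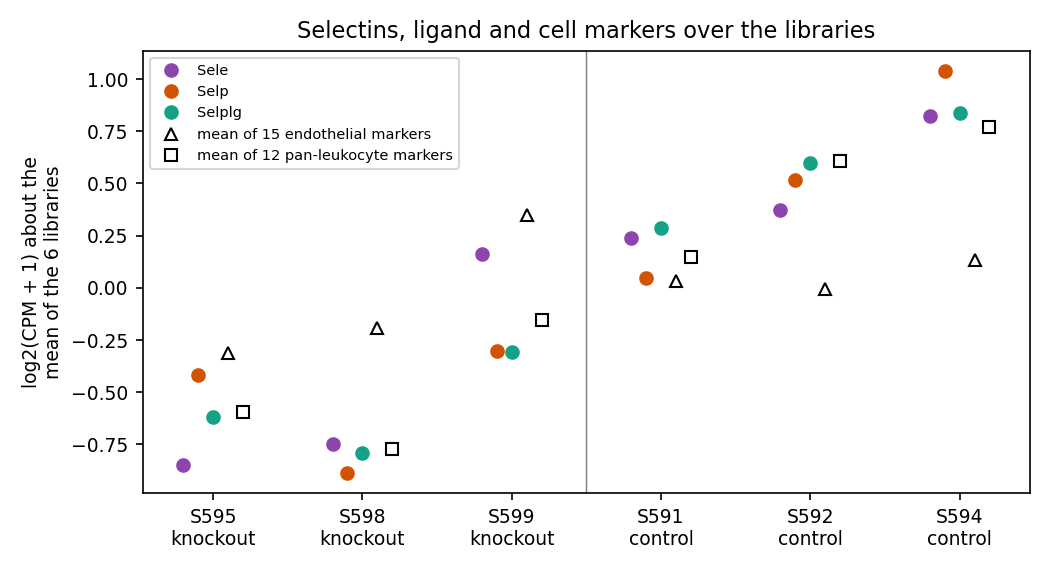
Log2(CPM + 1) of the 3 genes (filled circles) and the mean of the endothelial (triangles) and pan-leukocyte markers (squares), each about its own mean over the 6 libraries, by library on the x axis. The pan-leukocyte mean was 1.02 lower in knockout than in control arches and the endothelial mean 0.11 lower.

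Neighbouring genes were looked at for comparison. The gene that follows Selp on the chromosome, F5 for coagulation factor V, stood at 15.1, 3.42 and 6.68 CPM in knockout S595, S598 and S599, against 13.4, 41.0 and 49.1 CPM in control S591, S592 and S594, overlapping through S595 and S591 (log2 fold change −1.93, limma adjusted p = 0.143). Mettl18, which precedes Sele, averaged 2.34 ± 0.907 CPM in knockout and 3.19 ± 0.792 CPM in control arches (limma adjusted p = 0.511). Next to Selplg, Coro1c averaged 206 ± 2.99 CPM in knockout and 204 ± 11.5 CPM in control arches (log2 fold change 0.02, 95% interval −0.20 to 0.23). On the other side of Selplg, Tmem119 averaged 16.6 ± 2.45 CPM in knockout and 20.7 ± 3.36 CPM in control arches with overlap (log2 fold change −0.30, limma adjusted p = 0.369).

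Selectins bind decorated ligands, and genes of the enzymes that build the decoration were looked at next. Of 16 such genes 14 were listed, and Fut7 and Chst4 were not analysed here. Groups did not overlap for 4 of the 14 on the lower side, where 14.2% of all genes did not. On the higher side this held for 1 of the 14, beside 1617 of 14298 in the whole table. None of the 14 passed the limma test, the edgeR test, DESeq2 or limma-voom. At an unadjusted p under 0.05 limma had 3 on the lower and 1 on the higher side, where 12.0% and 8.04% of all genes were, and the median log2 fold change was −0.13 against −0.02 for all genes. The sialyltransferase gene St3gal4, which caps selectin ligands in mouse leukocytes, stood at 28.6 ± 6.79 CPM in knockout and 45.6 ± 9.24 CPM in control arches (log2 fold change −0.67, limma adjusted p = 0.156). The tyrosine sulphotransferase genes stood on opposite sides. Tpst2 stood at 15.4, 14.9 and 15.2 CPM in knockout S595, S598 and S599, against 19.5, 20.6 and 27.4 CPM in control S591, S592 and S594, without overlap (log2 fold change −0.52, limma adjusted p = 0.141). Tpst1, chosen after its values were seen, averaged 60.7 ± 2.94 CPM in knockout and 49.4 ± 4.13 CPM in control arches (log2 fold change 0.29, limma adjusted p = 0.179). The galactosyltransferase gene B4galt1 averaged 112 ± 10.7 CPM in knockout and 151 ± 21.0 CPM in control arches. Gcnt1, which starts the branched core on which the ligand's sugars grow, averaged 17.8 ± 4.03 CPM in knockout and 22.7 ± 3.75 CPM in control arches with overlap (limma adjusted p = 0.371). The fucosyltransferase gene Fut4 averaged 1.68 ± 0.0957 CPM in knockout and 2.35 ± 0.469 CPM in control arches (limma adjusted p = 0.445).

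Among other carriers of selectin-binding sugars, the smallest p belonged to Cd44. Of 12, 11 were listed, with 5 on the lower and 0 on the higher side at an unadjusted p under 0.05 by limma, where 12.0% and 8.04% of all genes were. Their median log2 fold change was −0.41. None passed by limma, edgeR or limma-voom, and DESeq2 called Cd44 and Lamp1 lower (4.44% of all genes). Leukocytes express some of these carriers too, and the part of the lower leukocyte markers was not tested. Cd44, the hyaluronan receptor that also binds E-selectin, stood at 106, 72.4 and 126 CPM in knockout S595, S598 and S599, against 147, 244 and 282 CPM in control S591, S592 and S594. Its groups did not overlap (log2 fold change −1.12, limma adjusted p = 0.121). Spn, the leukocyte mucin CD43, averaged 6.08 ± 0.642 CPM in knockout and 11.1 ± 3.19 CPM in control arches, and Lamp1, the lysosomal membrane protein, 721 ± 66.7 CPM in knockout and 957 ± 79.5 CPM in control arches. Glg1, the Golgi glycoprotein known as E-selectin ligand 1, averaged 401 ± 21.0 CPM in knockout and 372 ± 26.8 CPM in control arches (log2 fold change 0.11, limma adjusted p = 0.614).

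Of 14 genes of the storage granule of P-selectin, 13 were listed. At an unadjusted p under 0.05 limma had 2 on the lower and 1 on the higher side, close to the shares of all genes (12.0% lower and 8.04% higher), and the median log2 fold change was −0.08. By limma, edgeR and limma-voom 0 passed, while DESeq2 called Cd63 lower and Angpt2 higher (4.44% and 2.07% of all genes on those sides). Vwf, the von Willebrand factor that shapes the granule, averaged 257 ± 70.9 CPM in knockout and 327 ± 38.5 CPM in control arches with overlapping groups (log2 fold change −0.38, limma adjusted p = 0.345). Cd63, a tetraspanin of the granule and of lysosomes, averaged 349 ± 64.5 CPM in knockout and 545 ± 102 CPM in control arches. Angpt2, the stored Tie2 ligand, stood on the other side, at 106, 122 and 138 CPM in knockout S595, S598 and S599, against 80.8, 85.4 and 88.0 CPM in control S591, S592 and S594 (log2 fold change 0.51, limma adjusted p = 0.112). The release factor gene Stx3 averaged 21.7 ± 3.30 CPM in knockout and 31.6 ± 5.15 CPM in control arches.

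Genes that carry the signal from the ligand into the leukocyte mostly had negative fold changes, 16 of the 19 listed out of 20, beside 7470 of 14298 in the whole table. At an unadjusted p under 0.05 limma had 12 on the lower and 1 on the higher side (12.0% and 8.04% of all genes), and 10 had non-overlapping groups on the lower side (14.2% of all genes). Their median log2 fold change was −0.9996, beside −1.01 for the pan-leukocyte markers, whose part in it was not tested. By limma, edgeR and limma-voom 0 passed, and DESeq2 called 11 lower and 1 higher (4.44% and 2.07% of all genes). Of these genes, Fermt3 and Itgb2 are also among the pan-leukocyte markers described above. Itgam, which pairs with Itgb2 to form Mac-1, stood at 52.0, 44.0 and 53.4 CPM in knockout S595, S598 and S599, against 94.97, 159 and 221 CPM in control S591, S592 and S594 (log2 fold change −1.57, limma adjusted p = 0.107). The kinase gene Fgr averaged 17.8 ± 4.77 CPM in knockout and 55.1 ± 23.6 CPM in control arches (log2 fold change −1.52, limma adjusted p = 0.110), the adaptor gene Tyrobp 75.1 ± 20.9 CPM in knockout and 160.4 ± 24.3 CPM in control arches, and Fermt3, the integrin activator kindlin-3, 26.5 ± 3.90 CPM in knockout and 54.8 ± 13.6 CPM in control arches. The 1 gene on the higher side was Rasgrp2, an exchange factor for the GTPase Rap1 named here after its values were seen, at 85.4 ± 11.9 CPM in knockout and 51.4 ± 9.95 CPM in control arches.

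The next list held cytokines, receptors and factors that switch selectin genes on, together with Nfkbia, the gene of an NF-kappaB inhibitor. The 3 smallest p in the list belonged to receptor and cytokine genes. Of 21, 20 were listed, with 11 on the lower and 0 on the higher side at an unadjusted p under 0.05 by limma (12.0% and 8.04% of all genes). Of the 20, 12 had non-overlapping groups on the lower side (14.2% of all genes), and the median log2 fold change was −0.44. Leukocytes express many of these genes too, and the part of the lower leukocyte markers was not tested. By limma, edgeR and limma-voom 0 passed, and DESeq2 called 8 lower (4.44% of all genes). Il4ra, the interleukin-4 receptor chain, stood at 53.0, 41.8 and 49.2 CPM in knockout S595, S598 and S599, against 119.7, 158 and 210.1 CPM in control S591, S592 and S594 (log2 fold change −1.71, limma adjusted p = 0.0644). Osmr, the oncostatin M receptor chain, averaged 80.9 ± 16.6 CPM in knockout and 158 ± 26.2 CPM in control arches (log2 fold change −0.96, limma adjusted p = 0.107). The cytokine gene Il1b stood at 3.27, 2.75 and 2.28 CPM in knockout S595, S598 and S599, against 11.1, 9.46 and 33.0 CPM in control S591, S592 and S594, where S594 alone accounted for most of the control mean (log2 fold change −2.12, limma adjusted p = 0.107). The NF-kappaB genes were named here after their values were seen. The subunit genes in the list, Rela and Nfkb1, had intervals on both sides of 0, and other subunit genes were not looked at. Rela averaged 95.5 ± 10.2 CPM in knockout and 90.2 ± 1.15 CPM in control arches, with a 95% interval of the log2 fold change from −0.17 to 0.32 (limma adjusted p = 0.730). Nfkb1 averaged 87.0 ± 6.50 CPM in knockout and 96.6 ± 6.95 CPM in control arches, with an interval from −0.39 to 0.09 (limma adjusted p = 0.457). The inhibitor gene Nfkbia averaged 46.4 ± 2.81 CPM in knockout and 55.9 ± 1.89 CPM in control arches without overlap. Its interval ran from −0.49 to −0.04 (limma adjusted p = 0.191), and it is counted among the 11 and the 12 lower genes of the list.

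Adhesion molecules of the later steps, arrest and transmigration, did not share a direction. All 12 were listed, with 6 of 12 fold changes negative. At an unadjusted p under 0.05 limma had 4 on the lower and 2 on the higher side, where 12.0% and 8.04% of all genes were. The median log2 fold change was −0.012, which turned to 0.016 after quantile normalisation and 0.0057 by edgeR. By limma, edgeR and limma-voom 0 passed, and DESeq2 called Icam1 and Vcam1 lower (4.44% of all genes). These cytokine-inducible members, which bind leukocyte integrins, had log2 fold changes of −0.93 for Icam1 and −1.20 for Vcam1 (limma adjusted p = 0.107 each). Icam1 stood at 50.3, 39.5 and 51.5 CPM in knockout S595, S598 and S599, against 88.6, 77.6 and 106 CPM in control S591, S592 and S594. Vcam1 stood at 365, 255 and 432 CPM in the same knockout libraries, against 629.8, 956 and 815 CPM in the controls. Cd47, a ubiquitous membrane protein, averaged 117 ± 16.3 CPM in knockout and 168 ± 23.9 CPM in control arches. The part of the lower leukocyte markers in these differences was not tested. The 2 genes on the higher side, named here after their values were seen, were Jam3 and Mcam. Their log2 fold changes were 0.46 and 0.59 (limma adjusted p = 0.139 and 0.192), without overlap of the groups. The constitutive junction genes Cdh5 and Pecam1, given above, had log2 fold changes of 0.02 and 0.01, and both signs turned without knockout S599.

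**Figure D5:**
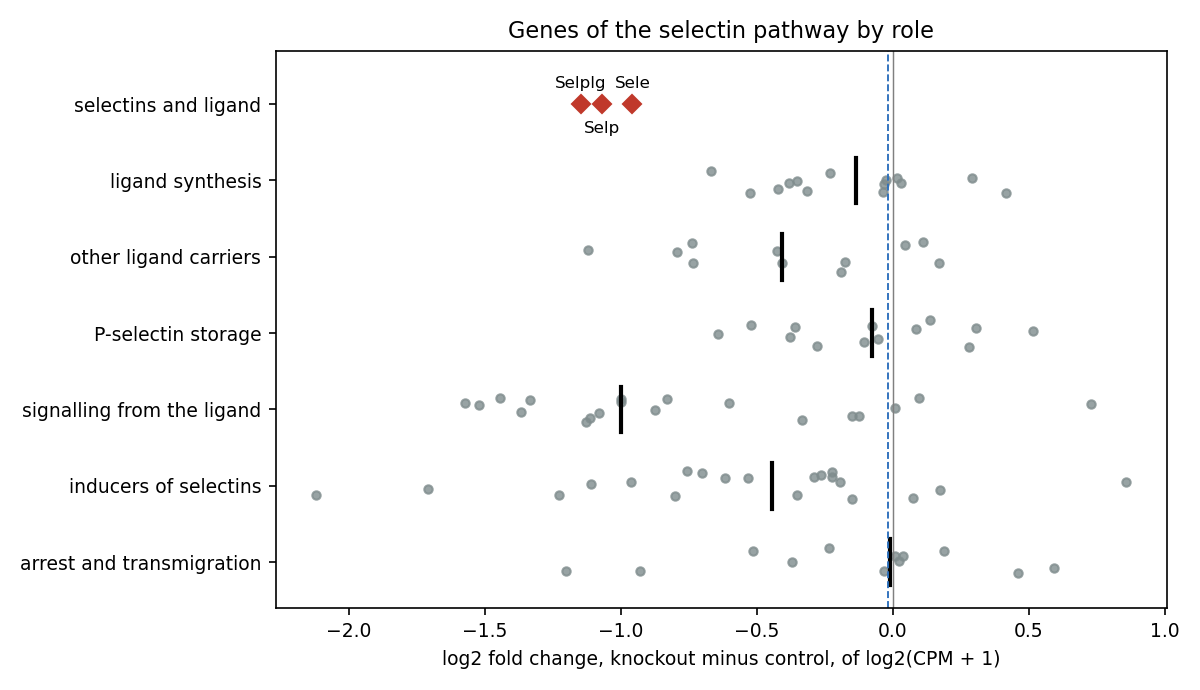
Log2 fold changes (knockout minus control, of log2(CPM + 1), x axis) of Sele, Selp and Selplg (diamonds) and of the genes of each role in the selectin pathway (grey points, black bar at the list's median). The dashed line is the median of all genes, −0.02. The median was −0.9996 for signalling from the ligand, −0.44 for the list of inducers and Nfkbia, and −0.012 for arrest and transmigration. The last turned to 0.016 after quantile normalisation.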

How the data were processed

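The deposited values are a normalised signal, 1 per gene and library. Whole reads could be recovered from 100% of them at a tolerance of 0.01, and the deposited values equal (reads + 0.5) divided by TMM-scaled library sizes, on the CPM scale, to within a relative difference of 1.01e-09, so they are called CPM. One read was worth 0.0964 to 0.178 CPM. The submitters' processing notes name CASAVA 1.8, cutadapt 1.6.1, RSEM 1.16, Bowtie 0.12.7, limma, edgeR and the build NCBIM37, with no roles. Which annotation was counted, and whether by strand, is not given in the sources used here. RNA integrity scores were at least 7.9, per the labels' protocols. Every gene in the table exceeds 1 CPM in at least 3 libraries, so genes below that level were not analysed here. Columns name the group and a library number but no sample. Symbols were matched for 13828 of 14298 identifiers. Exon lengths are unions of exons in GENCODE M21, and promoter sequences and gene order are from RefSeq (GRCm38.p6). Of the 3 genes, 2 matched the promoter table.

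The test of knockout against control was limma 3.58.1 (R 4.3.3), fitted to log2(value + 1) of all 6 libraries with a trend in the variance, no covariate, a filter of at least 1 CPM in at least 3 libraries, and Benjamini-Hochberg adjustment over all 14298 genes (threshold 0.05). Exact permutation tests over libraries were two-sided. The pseudocount, filter, scaling, variance trend and library weights were varied, libraries were left out, and tests were repeated with edgeR 4.0.16, DESeq2 1.42.0 and limma-voom on the recovered reads. These count tests called 0, 894 and 0 genes. The 3 genes, the lists and the tests were chosen with earlier results of these data known. Named genes were the 3 genes, 15 fixed names (1 of them is not reported here), the 3 members of each pathway list with the smallest p, and the 3 genes most correlated with each of the 3 genes.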

Additional observations from a re-analysis of the deposited data

How the results depend on the processing

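All 18 alternatives kept the negative sign of Sele, Selp and Selplg. Changing the filter or dropping the intensity trend could not alter it, since these settings leave the fold change as it was. Sele stayed above the adjusted threshold of 0.05 in all 18 (adjusted p from 0.0587 to 0.467). Selp and Selplg passed it under limma with array weights (log2 fold changes −1.20 and −1.23), under DESeq2 (−1.11 and −1.18) and without control S591 (−1.31 and −1.29), and in no other alternative. With 1 library left out, log2 fold changes ran from −1.28 to −0.77 for Sele, from −1.31 to −0.82 for Selp and from −1.29 to −1.01 for Selplg. The differences relative to markers kept their sign in 10 alternatives each, from −0.99 to −0.72 for Sele, −1.20 to −0.75 for Selp and −0.31 to −0.013 for Selplg.

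Over the whole table limma called 3 genes. The count was 0 with a pseudocount of 0.1, with the filter at 5 CPM, by edgeR, by limma-voom and without knockout S598 and S599, 1 with no intensity trend, 894 by DESeq2 and 1011 with array weights, and ran from 0 to 669 with 1 library left out. The 669 were without control S591. Without knockout S598 and S599, which assumes that S595 varies like the controls, the list median was −0.32 for ligand synthesis and −0.27 for arrest and transmigration. The sign of the arrest and transmigration median turned after quantile normalisation (0.016) and by edgeR (0.0057), and with 1 library left out it ran from −0.22 to 0.093, while the storage median ran from −0.14 to −0.050. Genes near 0 changed sign too. Cdh5 was at −0.014 with array weights, −0.27 without knockout S598 and S599 and from −0.26 to 0.17 with 1 library left out. Pecam1 was at −0.031, −0.23 and from −0.18 to 0.13 in the same order. Rbpj was at −0.16 without knockout S598 and S599 and from −0.045 to 0.12 with 1 library left out. The cause was not tested. No paired analysis was possible because the columns carry no replicate number of the labels.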
